A study of Mus musculus with 10 samples.

Results

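The 8 genes described here mark the neighbours of the medial habenula in the mouse brain. Of these, 5 (Prkcd, Tnnt1, Plekhg1, Rora and Synpo2) are used as markers of thalamic neurons, and 3 (Pcdh10, Gap43 and Peg10) as markers of the lateral habenula. They were chosen by name from the 56691 genes of the deposited table, as a measure of neighbouring nuclei in the dissection, and all 8 were among the 14928 genes tested. The libraries came from 6 wild-type mice in nicotine withdrawal and 4 wild-type control mice. Withdrawal mice were given nicotine ditartrate at 4 mg/kg as 2 intraperitoneal injections daily over 14 days, then saline from day 15 on. Control mice were given only saline by the same route, and tissue of both groups was taken on day 17. The source label names cholinergic neurons isolated by flow cytometry, whereas the series record names medial habenula tissue and no sort. Strain, sex and age were not stated in those records. The comparison addresses how habenular RNA differs once repeated nicotine is stopped.

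The medial habenula is a small nucleus at the top of the thalamus. It is bordered on its outer side by the lateral habenula and below by the paraventricular and mediodorsal thalamus, and the hippocampus lies over it. Thalamic projection neurons are glutamatergic, load their vesicles through the transporter Slc17a6 and carry sensory, motor and limbic signals to the cortex. The lateral habenula is also glutamatergic and sends its axons to midbrain nuclei that control dopamine and serotonin release. A dissection that reaches past the medial habenula therefore brings transcripts of these neurons into the library.

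Library totals lay between 15023448 and 22026333 counts. The labelled tissue was checked with 10 medial habenula markers (among them Chat, Tac2, Chrnb4 and Pou4f1). Their summed level was 658 to 1018 CPM in withdrawal 1, 3, 4, 5 and 6 and 738 to 1025 CPM in controls 1, 3 and 4, where CPM is the count scaled to a common library size, after correction for library composition. It was 14.5 CPM in withdrawal 2 and 16.8 CPM in control 2. In withdrawal 2 and control 2, Chat, the enzyme that makes acetylcholine, was at 0.20 and 0.16 CPM. Oligodendrocyte markers (5 genes), from cells that a sort of neurons aims to leave out, summed to 5560 to 13920 CPM in withdrawal libraries. They summed to 8226 to 11740 CPM in controls. Whether a sort was made was not tested. Because withdrawal 2 and control 2 held few medial habenula transcripts, 2 sets of libraries are used. The 8 genes and the 14 other thalamic genes are given over all 10 libraries and over the 8 libraries without withdrawal 2 and control 2. Of the further marker and relative lists described, none had a gene called over all 10 libraries in edgeR, so their calls rest on the 8 libraries. These were set aside with earlier results of these data known.

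Over all 10 libraries, none of the 8 genes passed the test, and the fitted log2 change was above 0 for all 8, as for 50.6% of all tested genes. The count was 0 of 8, beside 0.208% of all tested genes called in the same fit (31 genes, 5 higher and 26 lower, edgeR quasi-likelihood test with Benjamini-Hochberg adjustment). Scaling by library totals alone gave 0 higher and 6 lower. At an unadjusted p under 0.05 the count was 2 of 8 (Pcdh10 and Gap43), against 15.4% of all genes. DESeq2 and limma also called 0 of the 8, beside 2.56% and 0.0804% of all genes, with 2 of the 8 at an unadjusted p under 0.05 in each. Over the 8 libraries 1 of the 8 genes, Gap43, was called as higher, beside 6.36% of all genes called as higher and 14.0% called in either direction. There 7 of the 8 log2 changes were above 0, beside 51.3% over all genes. The median log2 change of the 8 genes was 0.76 over 10 libraries and 0.65 over 8 libraries, beside medians of 0.0034 and 0.0077 over all tested genes. In bulk RNA, fewer cells of a type and less RNA per cell cannot be told apart.

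**Figure D1:**
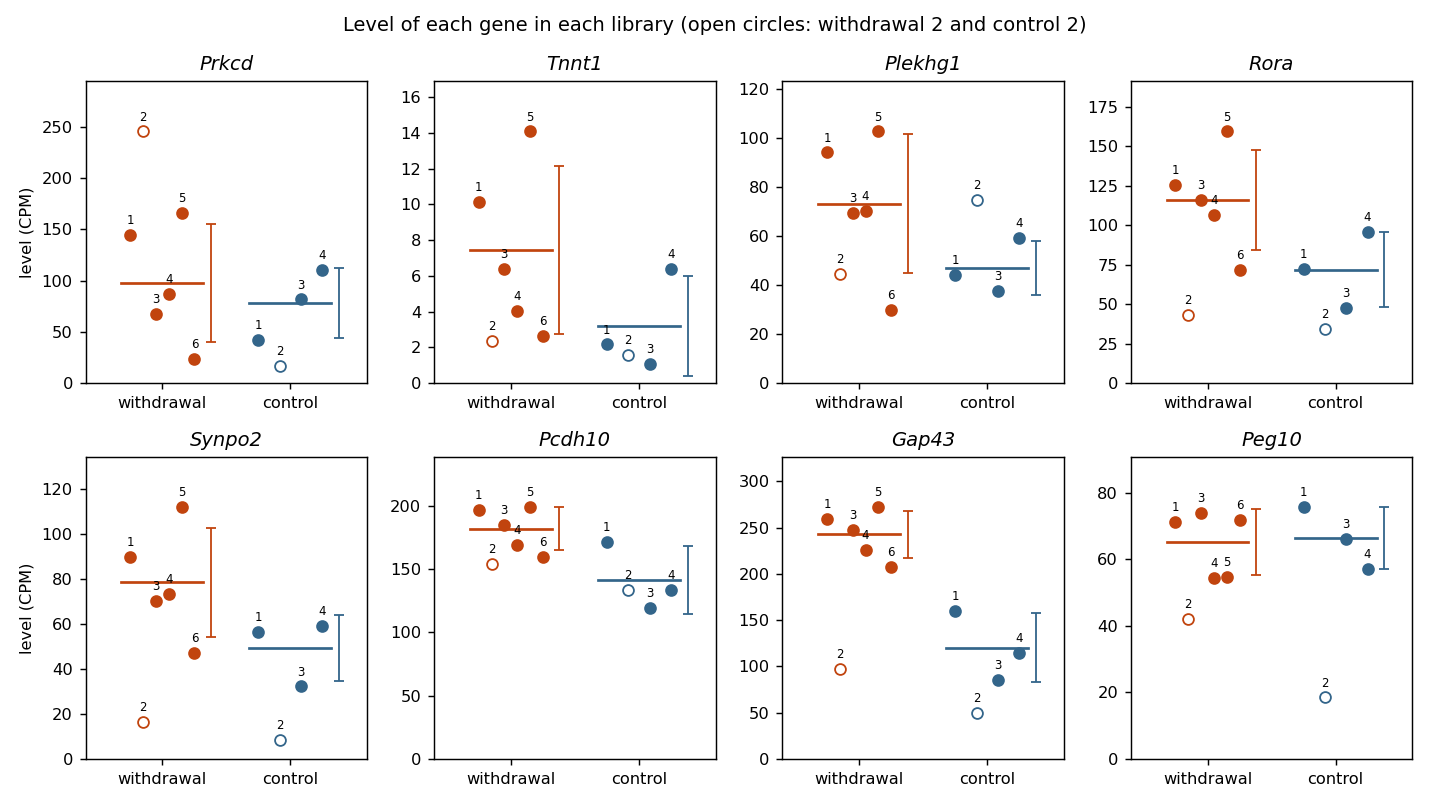
Level in CPM (vertical axis) of each of the 8 genes in 6 withdrawal libraries (left) and 4 control libraries (right), 1 point per mouse with its replicate number. Open circles are withdrawal 2 and control 2, and the line and bar are the mean and SD of the other libraries. Gap43 lies between 208 and 272 CPM in the 5 filled withdrawal points, above all 3 filled control points, while the groups overlap for the other 7 genes.

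Among the thalamic markers, Prkcd encodes protein kinase C delta, a lipid-activated kinase known from sensory relay nuclei and, in the forebrain, also from neurons of the central amygdala. Its level was 144, 67.8, 87.4, 166 and 23.5 CPM in withdrawal 1, 3, 4, 5 and 6, and 42.5, 81.6 and 110.1 CPM in controls 1, 3 and 4. Withdrawal 2 held the highest Prkcd of all 10 libraries, at 245 CPM, and control 2 the lowest, at 17.3 CPM. The groups overlapped, and the lowest of the 5 withdrawal values lay below all 3 of these controls. The log2 change of Prkcd was 0.96 (SE 0.647, edgeR adjusted p = 0.472) over 10 libraries and 0.31 (SE 0.531, edgeR adjusted p = 0.728) over 8. These 2 values differ by more than 1.5 times.

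Tnnt1 encodes the troponin T of slow skeletal muscle and is used in mouse brain as a marker of thalamic relay neurons. It was the lowest of the 8 genes per gene length, at 3.03 ± 2.13 FPKM in withdrawal and 1.27 ± 1.15 FPKM in controls (SD, n = 6 and 4). Its counts ran from 18 to 286 in a library. In CPM it was 10.1, 6.38, 4.02, 14.1 and 2.63 in withdrawal 1, 3, 4, 5 and 6, and 2.17, 1.10 and 6.38 in controls 1, 3 and 4. Withdrawal 2 had 2.35 CPM and control 2 had 1.59 CPM. Control 4 lay within the withdrawal range, so the groups overlapped. The log2 change was 1.22 (SE 0.649, edgeR adjusted p = 0.378) over 10 libraries and 1.16 (SE 0.635, edgeR adjusted p = 0.247) over 8. Of 6 skeletal muscle markers, the creatine kinase Ckm was at or below 0.295 CPM in every library. The slow-muscle myosin Myh7 was at 4.13 to 16.1 CPM in withdrawal libraries and 3.13 to 7.78 CPM in controls. Acta1 and Tnnc1 passed the filter on low levels, and neither was called in either fit. The list of 6 summed to 12.2 to 24.9 CPM in withdrawal libraries and 11.4 to 15.2 CPM in controls.

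Plekhg1, a guanine nucleotide exchange factor for small GTPases, was at 94.0, 69.2, 70.2, 103 and 29.9 CPM in withdrawal 1, 3, 4, 5 and 6, and at 44.2, 37.6 and 59.2 CPM in controls 1, 3 and 4. It was at 44.5 CPM in withdrawal 2 and at 74.6 CPM in control 2. The third highest of all 10 values was thus control 2, the library with the most hippocampal and cortical neuron markers. Its log2 change was 0.34 over 10 libraries and 0.63 (SE 0.334, edgeR adjusted p = 0.235) over 8.

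Rora is a nuclear receptor of the ROR family that binds DNA as a monomer and is needed in Purkinje cells and thalamic neurons. It was at 126, 116, 106, 160 and 71.8 CPM in withdrawal 1, 3, 4, 5 and 6, and at 72.3, 47.8 and 95.8 CPM in controls 1, 3 and 4. Withdrawal 2 and control 2 were low, at 43.4 and 34.5 CPM. The log2 change was 0.73 (SE 0.378, edgeR adjusted p = 0.367) over 10 libraries and 0.68 (SE 0.262, edgeR adjusted p = 0.114) over 8.

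Synpo2 encodes an actin-binding protein that is also abundant in smooth and skeletal muscle. It was at 89.7, 70.4, 73.3, 112 and 47.2 CPM in withdrawal 1, 3, 4, 5 and 6, and at 56.6, 32.3 and 59.2 CPM in controls 1, 3 and 4. Withdrawal 2 had 16.4 CPM and control 2 had 8.57 CPM, the lowest Synpo2 of the 10. Its log2 change was 0.80 (SE 0.577, edgeR adjusted p = 0.502) over 10 libraries and 0.66 (SE 0.274, edgeR adjusted p = 0.135) over 8. Smooth muscle markers had the opposite sign, with 3 of 4 tested genes (Acta2, Tagln and Myl9) called as lower over the 8 libraries, beside 7.63% of all genes. Acta2, the smooth muscle actin, was at 6.73 ± 1.89 CPM in withdrawal and 15.4 ± 6.05 CPM in controls (SD, n = 5 and 3).

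The upstream sequences of 4 of these genes are shown side by side. They are the windows found to hold the motif GGGCGG, and the library patterns of the 4 genes were not all alike. Prkcd was highest in withdrawal 2, and Synpo2 was low there. Tnnt1 was low there, in withdrawal 6 and in controls 1, 2 and 3, and Pcdh10 was nearly level. The sequences are the 250 bases before the annotated start, 5′ to 3′ on the gene's strand. They come from RefSeq with build GRCm38.p6, which is not the build of the counts. Capitals mark GGGCGG, the core of the box that Sp1 binds, and the TATA motif, spelled TATAAA. Both were searched on both strands, and no matches of the 2 motifs overlapped.
Prkcd, chr14:30626209-30626458, minus strand: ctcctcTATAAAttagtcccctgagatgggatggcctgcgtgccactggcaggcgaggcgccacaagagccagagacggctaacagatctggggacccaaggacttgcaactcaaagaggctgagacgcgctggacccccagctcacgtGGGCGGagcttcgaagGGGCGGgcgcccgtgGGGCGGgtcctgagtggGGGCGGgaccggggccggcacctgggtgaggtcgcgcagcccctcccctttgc
Tnnt1, chr7:4515976-4516225, minus strand: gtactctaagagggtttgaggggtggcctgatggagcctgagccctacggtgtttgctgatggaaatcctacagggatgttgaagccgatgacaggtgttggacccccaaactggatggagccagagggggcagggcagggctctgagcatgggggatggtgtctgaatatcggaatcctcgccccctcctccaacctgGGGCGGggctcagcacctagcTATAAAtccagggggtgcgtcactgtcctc
Synpo2, chr3:123236150-123236399, minus strand: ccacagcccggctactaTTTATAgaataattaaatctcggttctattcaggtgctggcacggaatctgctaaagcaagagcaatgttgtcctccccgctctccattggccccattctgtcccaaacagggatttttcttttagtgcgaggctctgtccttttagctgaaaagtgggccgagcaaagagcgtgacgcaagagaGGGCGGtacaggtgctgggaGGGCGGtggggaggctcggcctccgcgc
Pcdh10, chr3:45378148-45378397, plus strand: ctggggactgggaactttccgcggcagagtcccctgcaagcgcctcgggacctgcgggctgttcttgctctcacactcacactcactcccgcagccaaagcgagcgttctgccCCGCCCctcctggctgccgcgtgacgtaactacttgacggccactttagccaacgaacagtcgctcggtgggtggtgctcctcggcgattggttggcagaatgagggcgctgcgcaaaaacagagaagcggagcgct

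Prkcd held 4 copies of GGGCGG, Synpo2 held 2, and Tnnt1 and Pcdh10 held 1 each, while Plekhg1, Rora and the second window of Prkcd, which are not printed, held none of either motif. The printed windows are thus the 4 of 7 that hold GGGCGG, which was in 32.9% of 27025 promoters of the same length. In Tnnt1, TATAAA began 30 bases before the start, while in Prkcd and Synpo2 it lay 244 and 233 bases before it. For Tnnt1 alone, the sequence checked after the start was not found in a GENCODE transcript of the gene. Its position thus rests on the RefSeq start. TATAAA was in 13.0% of all promoters. AGGTCA, the core that ROR receptors such as Rora bind, was searched on both strands too. It was in none of the 7 windows listed for 6 of the 8 genes, and in 13.8% of all promoters.

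Gap43 was the lateral habenula marker with the largest change of the 3. It encodes a growth cone phosphoprotein that protein kinase C phosphorylates and that is made by growing and plastic axons. Its level was 260, 248, 226, 272 and 208 CPM in withdrawal 1, 3, 4, 5 and 6, and 160, 85.7 and 115 CPM in controls 1, 3 and 4. Each of these 5 withdrawal libraries lay above each of these 3 controls, which held for 11.9% of all tested genes. Withdrawal 2 had 97.6 CPM and control 2 had 49.8 CPM, so that over all 10 libraries the groups overlapped.

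Over the 8 libraries Gap43 rose 2.01-fold in withdrawal, at 243 ± 25.9 CPM in withdrawal and 120.2 ± 37.5 CPM in controls (SD, n = 5 and 3). The log2 change was 1.01 (SE 0.176, edgeR adjusted p = 0.00864). Over all 10 libraries it was 1.09 (edgeR adjusted p = 0.264), at 218 ± 63.6 CPM in withdrawal and 103 ± 46.6 CPM in controls (SD, n = 6 and 4), and the call was not made. Leaving out withdrawal 2 alone gave an edgeR adjusted p of 0.0437, in a fit that called 5.98% of all genes. Within the 8 libraries the call held in each of 14 further fits, among them the 8 fits that left out 1 library each, with edgeR, DESeq2 or limma adjusted p between 3.83e-07 and 0.0330 and log2 changes between 0.82 and 1.27. The lowest of these was the fit without control 3, whose Gap43 was the lowest of the 3 controls.

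Gap43 also stood far above the other 7 genes per gene length, at 146 ± 42.8 FPKM in withdrawal and 66.6 ± 33.6 FPKM in controls (SD, n = 6 and 4). Prkcd came next, at 22.2 ± 14.05 FPKM in withdrawal and 11.3 ± 7.75 FPKM in controls. Pcdh10, Peg10, Rora, Plekhg1 and Synpo2 had means of 11.3, 9.34, 8.05, 7.69 and 5.29 FPKM in withdrawal and of 8.49, 8.10, 4.73, 5.68 and 2.998 FPKM in controls. Below Gap43, neighbours in this order differed by less than the sum of their SDs in either group. Of 3 membrane proteins related in function to Gap43, Basp1 (log2 change 0.45, edgeR adjusted p = 0.0344) and Marcks (log2 change 0.24, edgeR adjusted p = 0.0185) were called as higher over the 8 libraries, beside 6.36% of all genes. Marcksl1 was not (log2 change 0.019, edgeR adjusted p = 0.884), and none of the 3 was called over 10 libraries.

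Pcdh10, a protocadherin that joins neurons through like-with-like adhesion, was the steadiest of the 8 genes across the 10 libraries. It was at 197, 185, 169, 199 and 160.0 CPM in withdrawal 1, 3, 4, 5 and 6, and at 172, 119 and 134 CPM in controls 1, 3 and 4. Withdrawal 2 and control 2 were close to the rest, at 154 and 134 CPM. Pcdh10 thus did not fall there with the medial habenula markers, which summed to 14.5 and 16.8 CPM. Of 4 further lateral habenula genes, Gpr151 was at 0.60 and 1.65 CPM in these libraries and Htr2c at 284 and 11.5 CPM. Chrm3 was at 40.2 and 153 CPM and Vgf at 64.7 and 195 CPM. The source of the Pcdh10 transcripts there was not tested. Control 1 lay inside the withdrawal range of Pcdh10. The log2 change was 0.35 (SE 0.116, edgeR adjusted p = 0.264) over 10 libraries and 0.36 (SE 0.117, edgeR adjusted p = 0.0715) over 8. DESeq2 called it over the 8 libraries (adjusted p = 0.0294), beside 19.4% of all genes. Among its relatives, edgeR called Pcdh11x as higher over the 8 libraries and Pcdh1 and Pcdh8 as lower, out of 8 tested. In that edgeR fit 6.36% of all genes were called as higher and 7.63% as lower.

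Peg10, a gene derived from a retrotransposon and read from the paternal copy, showed no common direction. It was at 71.2, 74.0, 54.4, 54.6 and 71.9 CPM in withdrawal 1, 3, 4, 5 and 6, and at 75.7, 66.2 and 57.0 CPM in controls 1, 3 and 4. Withdrawal 2 had 42.0 CPM and control 2 had 18.5 CPM, the 2 lowest values. The log2 change was 0.18 (SE 0.332, edgeR adjusted p = 0.813) over 10 libraries and -0.030 (SE 0.131, edgeR adjusted p = 0.901) over 8. Its imprinted relatives Rtl1 and Sgce were not called either.

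**Figure D2:**
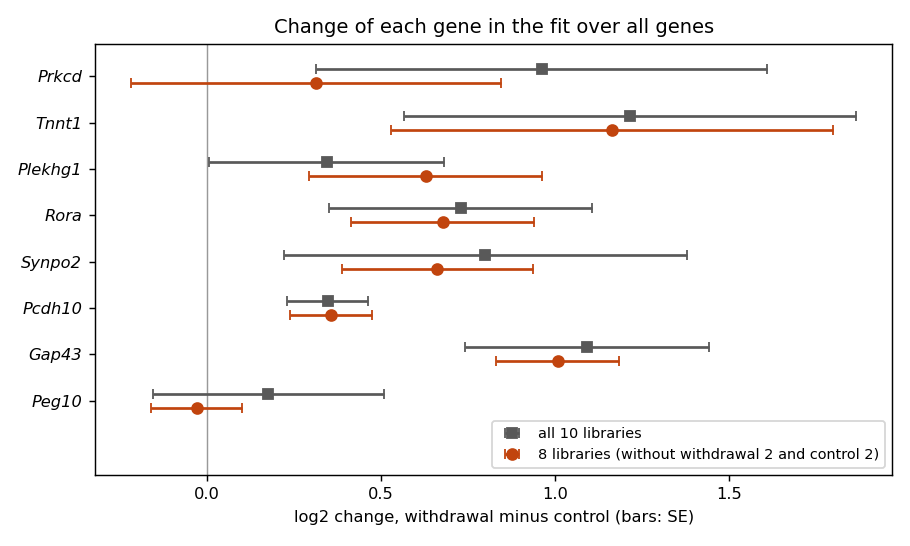
Log2 change, withdrawal minus control (horizontal axis), of each of the 8 genes with its SE, over all 10 libraries (grey squares) and over 8 libraries (orange circles). Gap43 keeps a log2 change near 1 in both, with the smaller SE over 8 libraries, Prkcd moves to 0.31 from 0.96, and Peg10 changes sign.

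Most of the 8 genes shared their highest and lowest withdrawal library, while the highest control differed between the 5 thalamic and the 3 lateral habenula markers among them. Among the 5 withdrawal libraries other than withdrawal 2, withdrawal 5 was the highest and withdrawal 6 the lowest for 7 of the 8 genes, Peg10 being the exception in both. Among controls 1, 3 and 4, control 4 was the highest for all 5 thalamic markers, and control 1 for all 3 lateral habenula markers. The split did not extend to the 14 other thalamic genes described below, which summed to 1436 CPM in control 1 and 1407 CPM in control 4. Of these, Ntng1 was highest in control 1 and Ramp3 in control 4. Among further lateral habenula genes, Gpr151 was highest in control 4 and Vgf in control 1. Control 3 was the lowest for 6 of the 8. The spread within a group was wide for the thalamic markers: across these 5 withdrawal libraries Prkcd ranged 7.07-fold, Tnnt1 5.35-fold and Plekhg1 3.43-fold. Gap43 ranged 1.31-fold and Pcdh10 1.24-fold there.

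A further 14 genes of thalamic neurons were read from the same fits. Over the 8 libraries 9 of these 14 were called as higher in withdrawal and none as lower, beside 6.36% of all genes called as higher, and the median log2 change was 0.90. Over all 10 libraries 0 of 14 were called by edgeR, DESeq2 or limma, 3 had an unadjusted p under 0.05 in edgeR, and the median was 0.99. The homeobox gene Shox2 had the largest change of the 9, at 63.9 ± 15.03 CPM in withdrawal and 22.7 ± 9.05 CPM in controls (SD, n = 5 and 3; log2 change 1.48, SE 0.288, edgeR adjusted p = 0.0121). The homeobox gene Gbx2, needed for the developing thalamus, was at 30.9 ± 8.94 CPM in withdrawal and 11.7 ± 6.11 CPM in controls (log2 change 1.39, edgeR adjusted p = 0.0368). Ntng1, which encodes the presynaptic adhesion protein netrin-G1, was at 191 ± 51.6 CPM in withdrawal and 81.3 ± 27.7 CPM in controls (log2 change 1.23, edgeR adjusted p = 0.0204).

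The others called were Slitrk6, a synaptic adhesion protein, Necab1, a neuronal calcium-binding protein, Lef1, a transcription factor of Wnt signalling, Cacna1g, a low-voltage calcium channel, Calb2, which encodes calretinin, and Slc17a6. Their log2 changes ran from 0.67 for Calb2 to 1.18 for Slitrk6, with edgeR adjusted p between 0.0149 and 0.0311. Slc17a6, which habenula neurons use as well, was at 553 ± 67.1 CPM in withdrawal and 321 ± 91.8 CPM in controls. Ramp3, a partner of calcitonin-type receptors, was not called: its log2 change was 1.31 over 10 libraries (edgeR adjusted p = 0.370) and 1.33 over 8 (edgeR adjusted p = 0.110). The count of 9 moved with single libraries, as did the count over all genes. It was 2 without control 3, the library with the lowest summed level of the 3 controls, 3 without withdrawal 5, and 13 without withdrawal 6.

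The summed level of these 14 genes was 2524, 2234, 2014, 2434 and 1638 CPM in withdrawal 1, 3, 4, 5 and 6, and 1436, 894 and 1407 CPM in controls 1, 3 and 4. Slc17a6 and Calb2 weighed most in these sums. They were at 592 and 692 CPM in withdrawal 1, and at 394 and 378 CPM in control 1. The sums of these groups did not overlap. They were 685 CPM in withdrawal 2 and 183 CPM in control 2. In withdrawal 2 the high Prkcd stood beside unlike levels of these 14 genes. Gbx2 was at 0.20 CPM, Shox2 at 0.40 CPM and Ramp3 at 2.004 CPM. Calb2 was at 221 CPM, and Grid2ip at 27.35 CPM was at its highest of the 10 libraries. The summed level of 7 GABAergic neuron markers was 1093 CPM in withdrawal 2, the highest of the 10. Of these 7, Gad1, Gad2, Slc32a1 and Six3 were highest in withdrawal 2, Pvalb and Sst in control 2, and Ecel1 in withdrawal 1. The high Plekhg1 of control 2 stood beside Gbx2 at 0.055 CPM and Shox2 at 0.33 CPM. The source of the Prkcd and Plekhg1 transcripts in withdrawal 2 and control 2 was not tested.

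Among 4 further lateral habenula genes, the neuropeptide precursor Vgf was called as higher over the 8 libraries (log2 change 0.47, edgeR adjusted p = 0.0320), beside 6.36% of all genes. Over all 10 libraries its sign was the opposite (log2 change -0.25, edgeR adjusted p = 0.743), with 195 CPM in control 2, the highest Vgf of the 10. The other 3 were not called over the 8 libraries: the orphan receptor Gpr151 had a log2 change of 0.070, the serotonin receptor Htr2c of -0.059 and the muscarinic receptor Chrm3 of -0.15. The median of the 4 genes was 0.0057. Over the 8 libraries, C1ql3 and the dopamine receptor Drd2, which are used for the paraventricular thalamus, were not called, with log2 changes of -0.45 (edgeR adjusted p = 0.153) and 0.49 (edgeR adjusted p = 0.0855). Gap43 and Vgf were thus the genes called over the 8 libraries among the 7 used as lateral habenula markers, and none of the 7 was called over all 10.

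**Figure D3:**
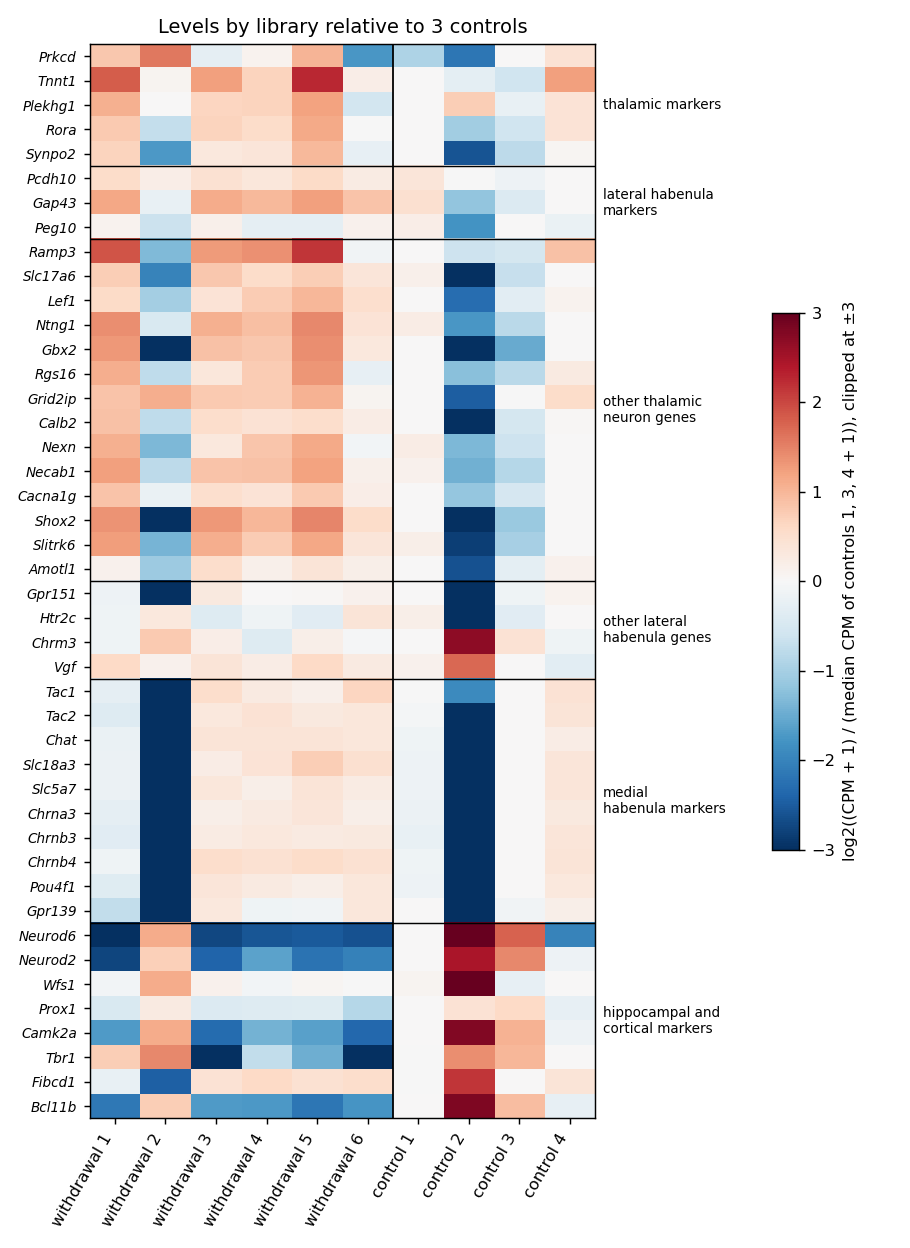
Level of each tested gene (rows) in each library (columns, withdrawal left of control), as log2 of CPM + 1 over the median of controls 1, 3 and 4 + 1, on a colour scale clipped at 3 either way. The 14 other thalamic genes are warm in withdrawal 1, 3, 4 and 5, weaker in withdrawal 6, and cold in withdrawal 2 (apart from Grid2ip) and control 2. Prkcd is warm in withdrawal 2 and Plekhg1 in control 2.

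Markers of other cells moved with these results, and their part in them was not tested. Over the 8 libraries, 0 of 10 medial habenula markers were called, with a median log2 change of 0.11. The counts that follow are over the 8 libraries, where 7.63% of all genes were called as lower and 6.36% as higher. Over all 10 libraries none of these lists had a gene called. Hippocampal and cortical neuron markers were called as lower in 5 of 8 tested genes (Neurod6, Neurod2, Prox1, Camk2a and Bcl11b). Their list of 9 summed to 424 to 645 CPM in the 5 withdrawal libraries and to 1237 to 2674 CPM in the 3 controls, with no overlap. All 5 oligodendrocyte markers were also called as lower, at 5560 to 9517 CPM in sum in withdrawal and 10600 to 11740 CPM in controls. Of 7 GABAergic neuron markers 0 were called, and of 5 astrocyte markers Gfap and Aldh1l1 were called as lower, with log2 changes of -0.80 and -0.22. Of the 7 genes of all neurons, Stmn2 and Tubb3, which act in the neuronal cytoskeleton, were called as higher, with log2 changes of 0.65 and 0.56. None was called as lower.

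**Figure D4:**
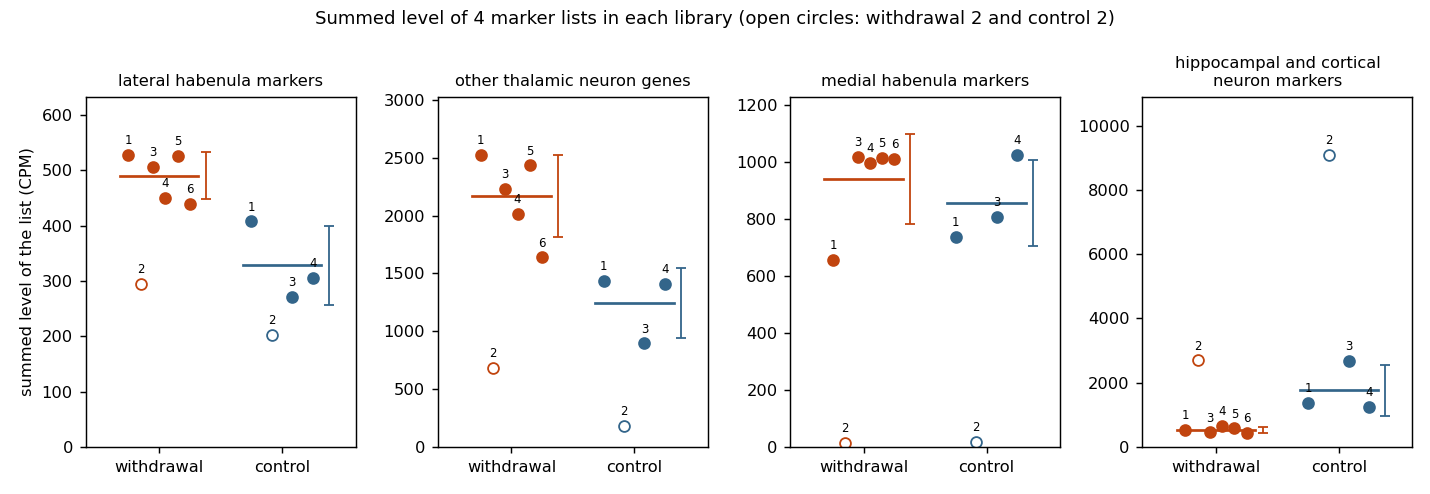
Summed level in CPM (vertical axis, from 0) of 4 marker lists in each withdrawal library (left) and control library (right), with open circles for withdrawal 2 and control 2 and the mean and SD of the other libraries. The 14 other thalamic genes sum to 1638 to 2524 CPM in the 5 filled withdrawal points and 894 to 1436 CPM in the 3 filled controls. Medial habenula markers overlap between the groups.

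Close relatives of the 8 genes did not share one direction over the 8 libraries. There 7.63% of all genes were called as lower and 6.36% as higher. Of 8 other protein kinase C genes, Prkca and Prkce were called as lower and none as higher. Prkca, a calcium-dependent kinase, was at 76.0 ± 10.2 CPM in withdrawal and 191 ± 82.95 CPM in controls (log2 change -1.34, edgeR adjusted p = 0.00732). Of 4 nuclear receptors close to Rora, Rorb and the clock repressor Nr1d1 were called as higher, with log2 changes of 0.79 and 0.69. Plekhg5, of 3 Plekhg relatives tested, and Synpo, the only synaptopodin relative tested, were called as lower, with log2 changes of -1.84 and -1.74. Over all 10 libraries Plekhg5, Synpo, Prkca and Prkce were highest in control 2, at 238, 240.3, 681.5 and 1131 CPM.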

How the data were processed

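RNA-seq libraries of 10 mice (6 in nicotine withdrawal, 4 controls) were compared. Raw read counts per gene and FPKM values were both made by the authors and deposited in 1 table, per the file headers. The submitters' processing notes name cutadapt 1.9.1, HISAT2 2.2.1, HTSeq 0.6.1 and build mm39; strand setting and annotation are not given in the sources used here, so overlapping antisense genes could not be told apart. Libraries were prepared from total RNA, per the labels' protocols. Symbols came from GENCODE M21 (52073 of 56691 identifiers named).

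Genes averaging 1 FPKM or more (14928 genes, at least 99.05% of each library's counts) were tested for withdrawal minus control with the quasi-likelihood test of edgeR 4.0.16 (TMM factors, R 4.3.3), 2-sided, at 0.05 after Benjamini-Hochberg adjustment across the tested genes. CPM used the same factors. The fold changes of lowly counted genes include edgeR's small prior count. Alternatives used DESeq2 1.42.0, limma 3.58.1 on log2(FPKM + 1), other filters and fewer libraries. Lists and members were chosen with earlier results of these data known. Named genes were the 8 members, genes of the fixed lists that passed or had the smallest p, markers that define a list where their levels stand beside a member's result, and the 2 genes most like each member over 8 libraries. Some results are not reported here. The counts carry no molecular identifiers, so counting error understates the full error.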

Additional observations from a re-analysis of the deposited data

Results flagged for a closer look

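Dixon's test compares the gap between an extreme library and its nearest neighbour with the range of the group. It flagged 3 of 44 groups (22 genes: the 8 members and the 14 other thalamic genes). Chance flags about 5% of groups, so the count of flags was near that share. All 3 flags were for a low value in withdrawal 2. Gap43 was at 97.6 CPM there, against 208 to 272 CPM in the others. Slc17a6 was at 86.3 CPM, against 453 to 613 CPM. Amotl1, a gene of the angiomotin family, was at 80.1 CPM, against 188 to 245 CPM. The flags do not list every gene that was low in withdrawal 2. Shox2 was at 0.40 CPM there, against 41.3 to 78.5 CPM in the other withdrawal libraries, and was not flagged. No group of 4 controls was flagged. The cause was not tested.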

How the results depend on the processing

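Over all 10 libraries the count of 31 changed genes became 6 with library totals only, 380 with DESeq2, 12 and 10 with limma on log2(FPKM + 1) and log2(FPKM + 0.1), 4 to 893 with 1 library left out, and 2088 without withdrawal 2 and control 2. With a replicate block edgeR called 0, with 1914 genes at an unadjusted p under 0.05. Titles share numbers 1 to 4, but same-numbered libraries deviated from their group means with correlations of 0.029, 0.305, -0.128 and 0.279, not all over 0.1, so the numbers were not taken as pairs. As a hint from the data, 3 of 4 withdrawal libraries correlated best with their own number. The count of members called was 0 to 1 with 1 library left out and 1 without both libraries, where 9 of the 14 other thalamic genes were called, against 0 in all other fits. Within the 8 libraries (fits chosen after the data were seen), 2 members (Gap43 and Pcdh10) were called with DESeq2 and without a filter, and 1 to 5 with 1 library left out. There 872 to 2911 genes changed with 1 library left out and 951 with the replicate block, which kept the Gap43 call. The count of other thalamic genes ran from 2 to 13. The 5 members called were those without withdrawal 6: Plekhg1, Rora, Synpo2, Pcdh10 and Gap43. That fit called 2911 of all 14928 tested genes. Peg10 reversed to -0.12 without control 2 and to -0.030 without both libraries, within a range of -0.12 to 0.38 with 1 library left out. Within the 8 it reversed to 0.031, 0.030 and 0.074 without withdrawal 4, withdrawal 5 and control 1, within a range of -0.13 to 0.074. The other 7 members stayed above 0 in every fit run. The causes were not tested, and fewer samples alone lower the power of the fits that leave 1 out.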

Other observations

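The genes most like each member were taken by Pearson's r of log2 CPM over the 8 libraries without withdrawal 2 and control 2. This is a description over 8 points that share 2 groups, and each gene is among the 2 highest of all tested genes, predicted and clone-named genes left out. Gap43 was followed by Dnm3, a dynamin of nerve terminals, and by Sparc, a matrix protein of glia and vessels, both with r = 0.995. Dnm3 was at 283 ± 12.2 CPM in withdrawal and 213 ± 24.3 CPM in controls (SD, n = 5 and 3; log2 change 0.41, edgeR adjusted p = 0.00980). Sparc was at 685 ± 62.0 CPM in withdrawal and 430.3 ± 110.2 CPM in controls (log2 change 0.66, edgeR adjusted p = 0.0189). Rora was followed by Inpp4b, a phosphoinositide phosphatase (r = 0.982), and by Adra1b, an adrenergic receptor (r = 0.980). Synpo2 was followed by Fign (r = 0.990) and Zdhhc22 (r = 0.987), Tnnt1 by Rpl36 (r = 0.982) and Rab37 (r = 0.978), and Plekhg1 by Ogdhl (r = 0.974) and Ttll7 (r = 0.961). Pcdh10 was followed by Pink1 (r = 0.991) and by the potassium channel Kcnj5 (r = 0.988), and Prkcd by the tyrosine phosphatase Ptpn3 (r = 0.979) and Scrt1 (r = 0.950). Peg10 had the weakest likeness, with Tsen54 at r = 0.930 and Plin2 at r = 0.926. Of these 16 genes, Dnm3 and Sparc were called over the 8 libraries and none over 10.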
